A study of Sus scrofa with 2 samples.

Results

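Nuclear genes of mitochondrial energy supply were followed on a porcine brain cDNA microarray in a self-comparison, in which both colour channels carry the same RNA. The genes were ATP5O, SDHD, COX6B, COX6C and SLC25A6, chosen by their gene symbols in the array's annotation and not by their ratios. They hold 15 of the 249 named spots and are 5 of the 83 named genes, on arrays of 3888 spots. Each gene was printed as 1 clone in 3 consecutive spots.

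Mitochondria make ATP by passing electrons from fuel along the respiratory chain of the inner membrane, which pumps protons, and by letting those protons return through ATP synthase. The ADP/ATP carriers then exchange the new ATP for cytosolic ADP. Brain depends heavily on this route, because ion pumping at neuronal membranes consumes much ATP. SDHD is a membrane anchor of succinate dehydrogenase (complex II), COX6B and COX6C are small nuclear-encoded subunits of cytochrome c oxidase (complex IV), ATP5O is the stalk subunit of ATP synthase also known as OSCP, and SLC25A6 is an ADP/ATP carrier.

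The study consisted of 2 two-colour arrays forming 1 group. On each, 18 µg of total RNA from whole brain, taken from a female pig at an age of 23 days, was copied into cDNA. The cDNA was parted into 2 aliquots that were labelled and hybridised against each other, as a measure of the array's background. No genotype, strain or treatment is named in the labels. The second array is described as a repeat, without a statement that the animal or the RNA differed, so every p-value measures only the spread between these hybridisations, which may be technical. With the same sample in both channels, the ratios below describe measurement error and no regulation.

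The deposited value of a spot is a signed log ratio of its channels, read here as log2. The base is not stated, and with a natural log every fold below would be larger. The dyes are not given, so a positive value is higher in one channel without saying which, and it is not known that both arrays had the same orientation. Brightness was not used here, so how strongly each gene is expressed cannot be compared, and the brain label cannot be checked against marker levels. The number of arrays, 2, limits the precision. Exact zeros, whose meaning is unknown, number 544 on array 1 and 494 on array 2. Only 6 and 13 of them lie among the 2595 spots up to the last named one. They occurred in 0 of the 15 spots of the energy genes on either array, which is thus not particular to these genes.

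All 5 genes read close to equal in the channels when averaged over the arrays. On array 2 alone COX6B stood at 1.30-fold. Averaged over the 3 spots and then over the arrays, the log2 ratios were 0.21 for COX6B, 0.15 for SDHD, 0.11 for COX6C, -0.036 for ATP5O and -0.12 for SLC25A6. As folds between identical samples these are 1.15, 1.11, 1.08, 1.03 and 1.09. Of the 15 spots, 0 on array 1 and 2 on array 2 differed by at least 1.2-fold, where 2.01% and 12% of all named spots did. The median log2 ratio of the 5 genes was 0.11, beside -0.0074 for all 83 named genes, and the median size regardless of sign was 0.12 beside 0.075.

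**Figure D1:**
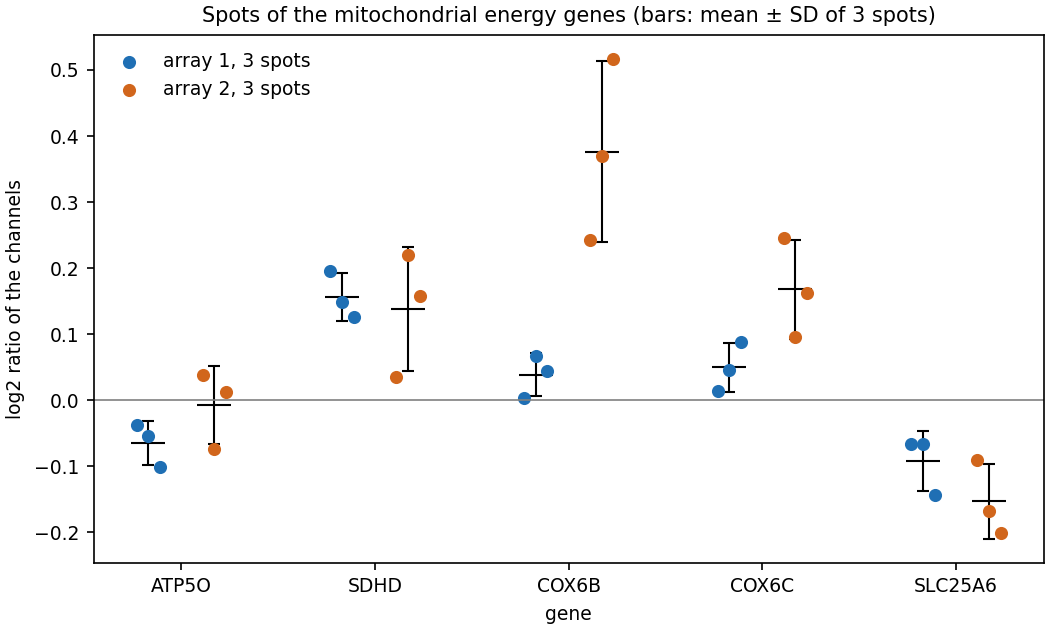
Log2 ratio of the channels (vertical axis) for each spot of the 5 genes, with 3 spots per gene on array 1 (blue) and array 2 (orange); the bar is the mean and the whiskers are the SD of the 3 spots. The spots of COX6B on array 2, from 0.24 to 0.52, stand above every other spot but 1, a spot of COX6C on array 2 at 0.25.

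The respiratory chain begins here with SDHD, which helps to bind complex II to the membrane and to hand electrons to ubiquinone. Its 3 spots had log2 ratios of 0.20, 0.15 and 0.13 on array 1 and of 0.036, 0.22 and 0.16 on array 2. All 6 values were positive, and the arrays overlapped. The means, 0.16 and 0.14, differed by 0.019, rank 73 of 83 in the size of the difference between arrays. This closeness depends on the processing: with both arrays scaled to equal spread the difference, array 2 minus array 1, was -0.096 (rank 30), and with array 2 turned it was -0.29 (rank 14). The mean over arrays was 0.15 ± 0.013 (SD, n = 2), with a limma 95% interval of 0.014 to 0.28. As for the other genes, that interval rests mainly on a common SD of 0.095 and hardly on the gene's own SD. The limma adjusted p was 0.17, so SDHD did not pass the threshold of 0.05. The mean ranked 8 of 83 from the highest, but 21 with local centring on neighbouring spots (0.057) and 35 with array 2 turned (0.0094).

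COX6B, the subunit of cytochrome c oxidase that faces the intermembrane space, differed most of the 5 between the arrays. Its log2 ratios were 0.0039, 0.067 and 0.045 on array 1 and 0.24, 0.37 and 0.52 on array 2. The arrays did not overlap: all 3 spots of array 2 lay above all 3 of array 1. The gene means were 0.039 and 0.38, or 1.03-fold and 1.30-fold, a difference of 0.34 that ranked 3 of 83 in size, or 5 of 83 with array 2 turned (-0.42). Over arrays the mean was 0.21 ± 0.24 (SD, n = 2). In limma its 95% interval was 0.073 to 0.34 and its adjusted p 0.049, which passed. That pass rests on the spread shared by all genes, whose common SD of 0.095 replaced nearly all of the gene's own SD of 0.24. It was lost under each of the 11 alternative fits, and without moderation the adjusted p was 0.68.

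COX6C, another small subunit of the same enzyme, spans the inner membrane. Its log2 ratios were 0.015, 0.046 and 0.088 on array 1 and 0.25, 0.096 and 0.16 on array 2. All 6 were positive, and array 2 again lay wholly above array 1, though only by the gap from 0.088 to 0.096. The mean over arrays was 0.11 ± 0.084 (SD, n = 2), with a limma 95% interval of -0.024 to 0.24 and an adjusted p of 0.35.

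ATP5O joins the catalytic head of ATP synthase to its peripheral stalk. It had log2 ratios of -0.037, -0.055 and -0.10 on array 1 and 0.039, -0.074 and 0.012 on array 2. The arrays overlapped, and of the 5 genes ATP5O alone had spots of both signs. The mean was -0.036 ± 0.040 (SD, n = 2), with a limma 95% interval of -0.17 to 0.097 and an adjusted p of 0.79. In fold terms the interval reaches 1.12-fold on one side and 1.07-fold on the other.

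SLC25A6, the carrier that exchanges ADP for ATP across the inner membrane, stood on the other side of 0 from the respiratory chain genes. Its log2 ratios were -0.066, -0.066 and -0.14 on array 1 and -0.091, -0.17 and -0.20 on array 2. All 6 were negative, and the arrays overlapped. The mean was -0.12 ± 0.043 (SD, n = 2), with a limma 95% interval of -0.26 to 0.010 and an adjusted p of 0.26. It ranked 11 of 83 from the lowest, and with array 2 turned its mean was 0.031, rank 60 from the lowest. The related carriers SLC25A4 and SLC25A5 are not among the named genes, and how far their transcripts bind this clone was not tested.

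Thus 1 of the 5 genes passed the limma threshold over the 83 named genes, of which 6.02% passed. It was positive, as were the calls of 3.61% of the named genes. The background moved too: of the 83 genes 0 passed under 6 of the 11 alternative fits, 1 under 2 and 4 under the other 3. At an unadjusted p under 0.05 there were 2 of 5, COX6B and SDHD, beside 24.1% of all named genes. When limma was run on single spots over the whole array, 0 of the 15 spots passed, as did 0% of all spots. That 0 is therefore not particular to the energy genes. At an unadjusted p under 0.05 there were 3 of the 15, beside 10.6% of all spots: 2 of SDHD and 1 of SLC25A6, each with an adjusted p of 0.46. No spot of COX6B was among them.

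The sign of a gene recurred in the values as deposited. All 5 genes had the same sign on both arrays as deposited, as did 68.7% of the 83 named genes. With the sign of array 2 turned, which the unknown dyes allow, this held for 0 of 5 and for 30.1% of the named genes. Those shares follow by arithmetic, since turning 1 array gives each gene of like signs unlike signs. They are no separate result. In 4 of the 5 all 6 values had 1 sign, beside 37.3% of the named genes. With array 2 turned this was 0 of 5 and 7.23%, where the loss of those 4 is again arithmetic. As deposited, the 6 values were all positive in 3, SDHD, COX6B and COX6C, beside 19.3%. They were all negative in SLC25A6, beside 18.1%. The spots of the arrays did not overlap for 2 of 5, COX6B and COX6C, beside 31.3% of the named genes, and in both array 2 was higher, as in 19.3% of the named genes. Whether these shares differ from those of the other genes was not tested.

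**Figure D2:**
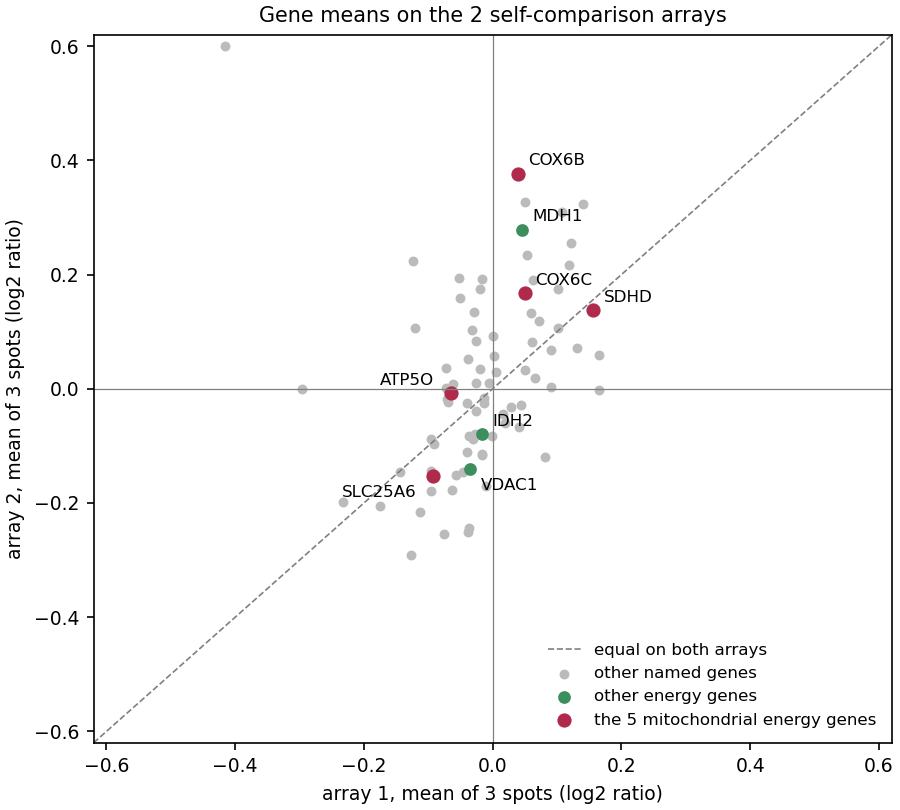
Mean log2 ratio of the 3 spots of each of the 83 named genes on array 1 (horizontal axis) and array 2 (vertical axis), with the 5 mitochondrial energy genes in red, 3 further energy genes in green and a dashed line where the arrays are equal. SDHD (0.16 and 0.14) lies next to the line, and COX6B (0.039 and 0.38) far above it.

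The genes did not move as a block. The closest pair by Euclidean distance of the array means were COX6C and SDHD, 0.11 apart on the log2 scale. COX6B and SLC25A6 were the farthest apart, at 0.55. The 2 cytochrome c oxidase subunits, which belong to 1 enzyme, were 0.21 apart.

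Each gene had a closer match among the 78 other named genes than among the other 4, by the same distance over the 2 arrays. A pool of 78 genes offers a closer match more readily than a pool of 4, so this says little about the genes. For SLC25A6 it was MT3, a brain metallothionein, at 0.0093, with log2 ratios of -0.096 and -0.14. For ATP5O it was RGS2, a regulator of G protein signalling, at 0.013, with -0.071 and -0.018. RBM38, an RNA-binding protein, was nearest to COX6C at 0.026, with 0.063 and 0.19. ESD, an esterase, was nearest to COX6B at 0.051, with 0.051 and 0.33, and so had the same low value on array 1 and high value on array 2. The nearest to SDHD was DBI, the acyl-CoA binding protein, at 0.063, with 0.10 and 0.11. With 2 arrays such likeness carries little information.

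MDH1, VDAC1 and IDH2 were the other named genes that belonged to the energy lists. MDH1 encodes the cytosolic malate dehydrogenase that feeds the malate-aspartate shuttle. It stood at 0.046 on array 1 and 0.28 on array 2, and its arrays did not overlap. VDAC1, the outer membrane channel through which ATP and ADP pass, stood at -0.035 and -0.14. IDH2, the mitochondrial isocitrate dehydrogenase that makes NADPH, stood at -0.017 and -0.079. None of these 3 passed in limma (adjusted p = 0.12, 0.44 and 0.73).

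By list, 1 of the 4 measured oxidative phosphorylation genes passed with a positive ratio and 0 with a negative one, where 3.61% of all named genes passed with a positive ratio and 6.02% in either direction. That gene was COX6B, whose call was lost under all 11 alternatives. The median of the list was 0.13. Of the carriers and outer membrane channels 0 of 2 passed, with SLC25A6 and VDAC1 both negative. Of the 18 genes listed for the tricarboxylic acid cycle and pyruvate 2 were measured and 0 passed. They were IDH2, which was negative, and MDH1, which was positive and encodes the cytosolic enzyme. The lists for glycolysis, creatine and adenylate transfer, and mitochondrially encoded genes had 0 measured members. Over the 8 measured genes of these energy lists the median log2 ratio was 0.036, beside -0.0074 for all named genes. The lists do not cover every named gene with a part in energy supply. The genes measured from the cell type lists were CPE (-0.22) and UCHL1 (-0.14) for neurons, MT3 (-0.12) for astrocytes and TF (0.0026) for oligodendrocytes. From the microglia list they were C1QB (0.23) and B2M (0.071), of which B2M is not specific to microglia. Among the genes of the cell type lists, CPE and C1QB passed in limma (adjusted p = 0.049 for both), beside 6.02% of the named genes. C1QB still passed under 3 of the 11 alternative fits and CPE under 2. Of the markers of blood and endothelium 0 were measured. Since both channels hold 1 sample, these values are no measure of cell composition.

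The 3 spots of a gene scattered less on array 1 than on array 2. On array 1 the SD of the 3 log2 ratios was 0.033 for ATP5O, 0.032 for COX6B, 0.037 for COX6C, 0.036 for SDHD and 0.045 for SLC25A6. On array 2 it was 0.059, 0.14, 0.075, 0.094 and 0.057 in the same order. It was thus higher on array 2 in all 5 genes, as in 81.9% of the 83 named genes. The ratio of the SDs ran from 1.26 for SLC25A6 to 4.28 for COX6B. The median SD of the 5 genes was 0.036 on array 1 and 0.075 on array 2, beside 0.041 and 0.090 over all named genes.

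**Figure D3:**
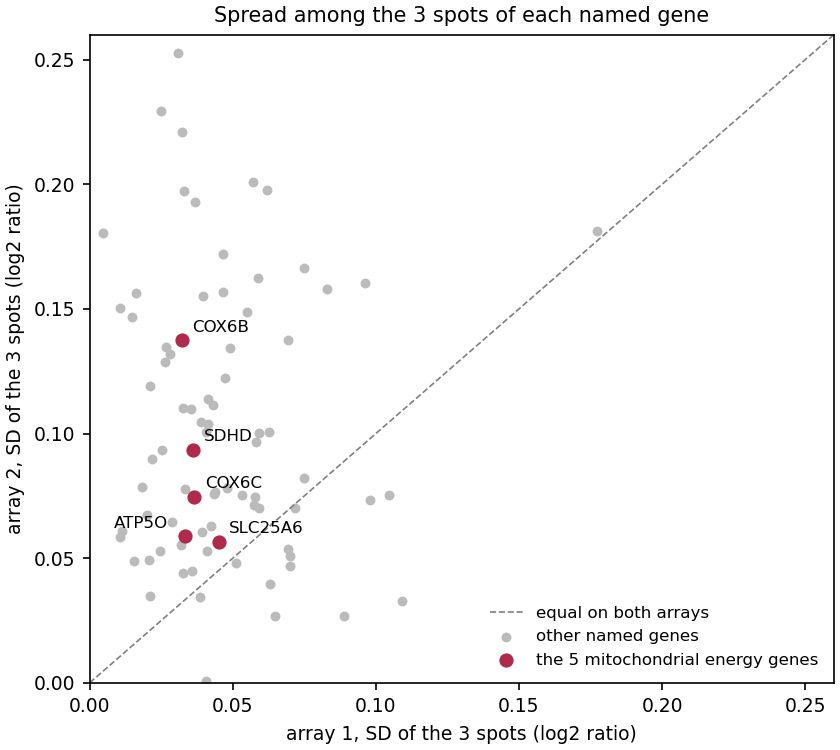
SD of the log2 ratios of the 3 spots of each named gene on array 1 (horizontal axis) and array 2 (vertical axis), with the 5 mitochondrial energy genes in red and a dashed line where both are equal; 2 genes with an SD above 0.26, TUBB and YWHAZ, lie outside the axes. All 5 energy genes lie above the line, COX6B highest at 0.14 on array 2.

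Agreement among the 3 spots did not make the ratio 0. On array 1 the mean of all 5 genes lay more than 2 standard errors of its 3 spots from 0, and on array 2 that of 4, all but ATP5O. Among all named genes 60.2% and 53% did so. SDHD on array 1 had a mean of 0.16 with a standard error over spots of 0.021, and COX6B on array 2 had 0.38 with 0.079. The 3 spots share a clone and have consecutive spot numbers, and their standard error does not hold any error that they have in common.

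The surroundings of each gene on the array were therefore measured as the median log2 ratio of the 60 nearest spots by spot number, 30 on each side, with the gene's own spots left out. Such windows around the 865 runs of 3 spots up to spot 2595, the last named one, had medians from -0.076 to 0.11 on array 1. On array 2 the medians ran from -0.11 to 0.13. Spot number gives the order in the table, and the layout on the slide was not used here.

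SDHD lay in a positive stretch. Of its 60 neighbours, 51 were positive on array 1 and 45 on array 2, with medians of 0.11 and 0.073. On array 1 its window median was the highest of the 865. Only 3 windows, its own included, were as high there, and 92 on array 2. Neighbouring windows share most of their spots, so these counts are not of separate stretches. The mean of SDHD exceeded 47 of its 60 neighbours on array 1 and 42 on array 2. Relative to its window it stood at 0.050 on array 1 and 0.065 on array 2, with a mean of 0.057 (limma adjusted p = 0.82), against 0.15 before.

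The mean of COX6B over arrays was slightly larger relative to its window than from 0, while its call was lost. Its neighbours had medians of -0.044 on array 1 and 0.028 on array 2, and the gene stood 0.083 and 0.35 above them, against 0.039 and 0.38 from 0. On array 2 its mean exceeded all 60 neighbours, and on array 1 it exceeded 42. Relative to the window the mean was 0.22 and the difference between arrays 0.27, and the limma adjusted p became 0.21.

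The other 3 genes lay in windows closer to 0 than that of SDHD. COX6C stood 0.084 and 0.14 above window medians of -0.035 and 0.032. ATP5O stood at -0.064 and 0.0039 relative to medians of -0.00040 and -0.011. SLC25A6 stood farther from its neighbours than from 0, at -0.13 and -0.19 relative to medians of 0.042 and 0.039, and only 5 of its 60 neighbours on array 1 and 4 on array 2 were below its mean. With these shifts its mean was -0.16 (limma adjusted p = 0.46).

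**Figure D4:**
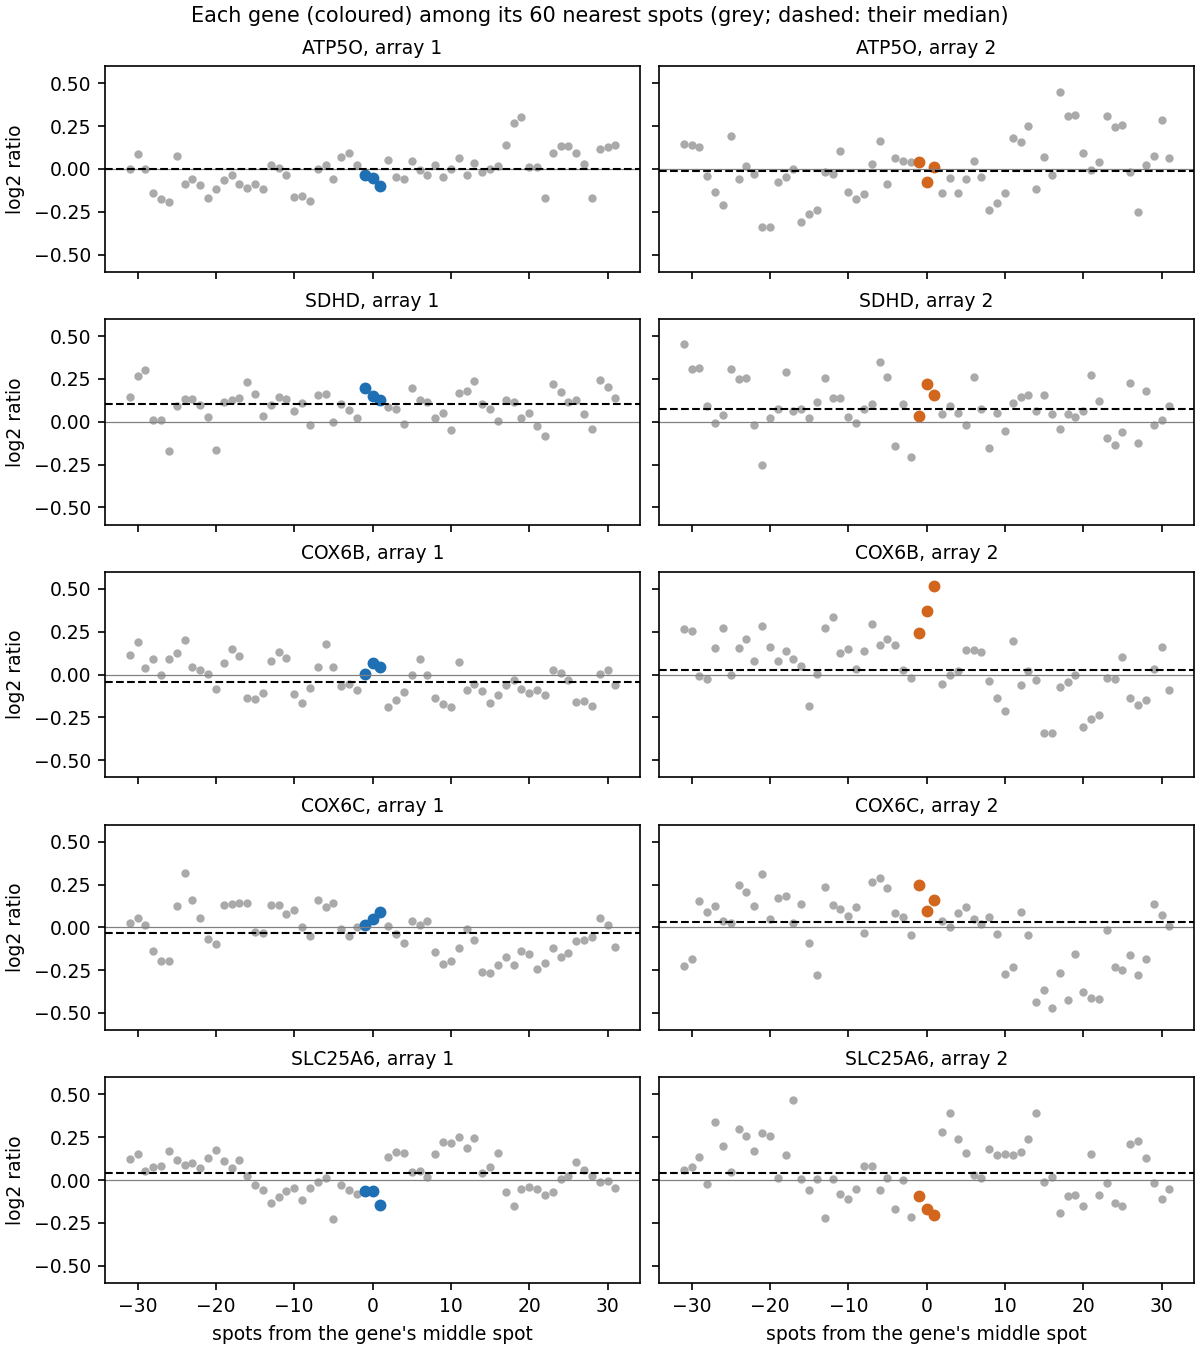
Log2 ratio of the channels (vertical axis) of each gene's 3 spots (coloured) and its 60 nearest spots (grey) against the number of spots from the gene's middle spot (horizontal axis), on array 1 (left) and array 2 (right); the dashed line is the median of the grey spots. The dashed line of SDHD lies at 0.11 on array 1, and all 60 grey spots of COX6B on array 2 lie below the gene's mean of 0.38.

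Nearness in the spot order and alike ratios did not go together in every pair of the 5 genes. How far the ratios follow the spot order was not tested. COX6B and ATP5O lay 36 spots apart and differed by 0.40 in distance, while COX6C and SDHD, the closest in value, lay 1410 spots apart. The named gene next to SDHD, CRYL1, 9 spots before it, had 0.051 and 0.033. RPS26, a ribosomal protein gene 9 spots before COX6B, had -0.12 on array 1 and 0.11 on array 2, so both genes were higher on array 2. ESD, the next named gene after SDHD at 48 spots, was the match of COX6B and not of SDHD.

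The order of the 5 genes by mean ratio, from COX6B through SDHD, COX6C and ATP5O to SLC25A6, is only partly separated and depends on the processing. With local centring COX6C (0.11) stood above SDHD (0.057), and with array 2 turned SLC25A6 (0.031) was highest and COX6B (-0.17) lowest. COX6B ranged from 0.039 to 0.38 over the arrays and so spans the values of SDHD and COX6C. ATP5O (-0.064 and -0.0076) and SLC25A6 (-0.092 and -0.15) did not overlap in their array means, but their 95% intervals did. COX6B, SDHD and COX6C lay above ATP5O and SLC25A6 on both arrays as deposited.

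**Figure D5:**
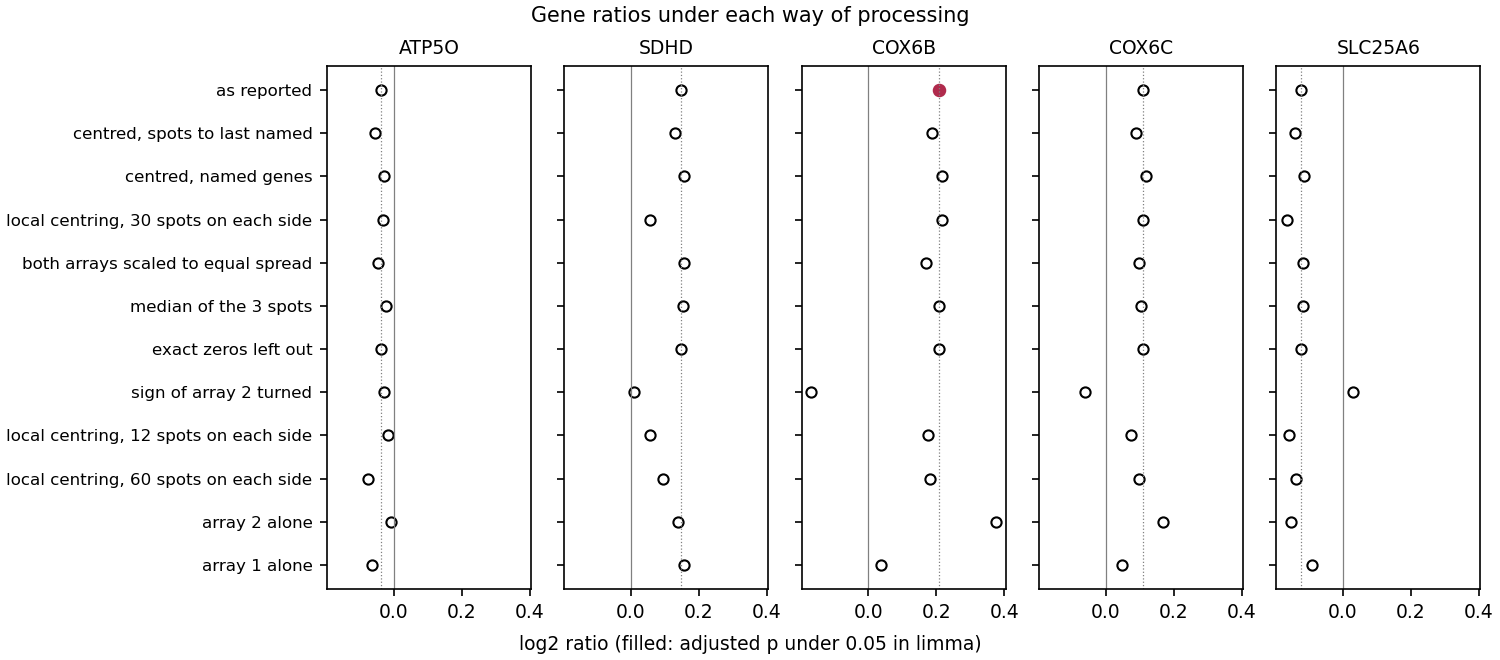
Log2 ratio (horizontal axis) of each of the 5 genes as reported and under other ways of processing (rows). Points are filled where the limma adjusted p is under 0.05. The changes of moderation, which leave the ratio as it was, are not drawn. Single arrays have no test, and the dotted line marks the reported value. The only filled point is COX6B as reported, at 0.21, and local centring moves SDHD from 0.15 to 0.057.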

How the data were processed

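Per the labels, whole brain RNA was hybridised against itself on 2 two-colour arrays. The deposited values are 1 log2 ratio per spot and array; the log base is an assumption from their range (up to 6.20 in size), and the scanner, background correction, normalization and direction are not given in the sources used here. Gene symbols came from the platform's annotation; all 5 gene identifiers matched a pig RefSeq gene table with the same symbol. Coordinates were not used here. The 3 spots of a gene were averaged on each array, and the mean over arrays was tested against 0 in limma 3.58.1 (R 4.3.3; lmFit with an intercept, eBayes) over all 83 named genes, with 1 residual degree of freedom per gene, and over all 3888 spots, with Benjamini-Hochberg adjustment at 0.05. Both fits were tried on simulated data with independent normal errors of 1 common spread and with shifts larger than the means of the 5 genes. The spot simulation covered only as many spots as lie up to the last named one. It therefore does not test calls of the size seen here. Python 3.11.15, pandas 2.3.3, numpy 2.4.6 and matplotlib 3.10.9 were used. Alternatives changed the centring, scale, orientation, zeros, spot summary, moderation and array. The genes were picked by symbol, but they, the lists and the tests were chosen with earlier results of these data known. Besides the 5 genes, the text names the most alike gene, the adjacent named genes and the measured members of the lists.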

Additional observations from a re-analysis of the deposited data

How the results depend on the processing

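No paired analysis was possible because only 1 group exists. Of the 5 genes, 1 passed in limma as reported and 0 passed under all 11 alternatives. COX6B, at 0.21 as reported, had 0.19 (adjusted p = 0.35) when centred on the spots up to the last named one, 0.22 (0.25) when centred on the named genes, 0.22 (0.21) with local centring, 0.17 (0.27) with equal spread, 0.21 (0.39) with the median of 3 spots, 0.21 (0.079) without exact zeros, and, added after seeing the data, 0.17 (0.12) and 0.18 (0.10) with 12 and 60 spots on each side. Robust eBayes gave an adjusted p of 0.064 for it. The cause was not tested. Turning array 2 reversed COX6B to -0.17, COX6C to -0.059 and SLC25A6 to 0.031, and brought SDHD to 0.0094 and ATP5O to -0.028; arrays of opposite orientation would thus leave other means. Single arrays gave COX6B 0.039 to 0.38, COX6C 0.050 to 0.17, SDHD 0.14 to 0.16, ATP5O -0.064 to -0.0076 and SLC25A6 -0.15 to -0.092. The count of 0 of 15 spots held under all 6 alternatives of that fit, where 0 to 5 of the 15 had an unadjusted p below 0.05. Of all spots 0 passed in each of these fits too, so the count could hardly have differed for the energy genes. The median SD of 3 spots, 0.055 over both arrays, was 0.036 to 0.075 on single arrays, and their median range was 0.11. The difference between arrays (array 2 minus array 1) turned from -0.019 to 0.015 with local centring and to 0.010 with the median of 3 spots for SDHD, and from -0.061 to 0.00035 with equal spread for SLC25A6. With equal spread that of SDHD was -0.096 and that of COX6B 0.24, and with local centring that of COX6C fell from 0.12 to 0.052. Added after seeing the data, turning array 2 lowered the genes with 1 sign on both arrays from 5 to 0 (all named genes: 57 to 25), and local centring lowered them to 4. The change on turning follows by arithmetic from the signs as deposited. Signal over background was not used here, so limits for dim spots are unknown.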
